A study of Mus musculus with 8 samples.

Results

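The Id genes encode inhibitors of helix-loop-helix transcription factors, and 4 of them were measured here, *Id1*, *Id2*, *Id3* and *Id4*. They are the rows of the deposited values whose array annotation names one of these genes. Each gene had 1 transcript cluster, the unit into which the array groups its probes, so the family is 4 of 41345 clusters and 4 of 22180 genes. The family was selected on earlier results for the log2 difference between SHH-N and vehicle in these same arrays. That difference is therefore given as a description, with no p-value, for the 4 Id genes. Genes of their partners, regulators and outputs were tested in the fit over all clusters. The gene lists were also chosen with earlier results of these data known. The shares called in the lists are therefore descriptions, and no excess over all genes was tested.

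The study asked which genes of cranial neural crest cells (cNCCs) respond to Sonic hedgehog (Shh) signaling. Cells of the O9-1 line, immortalized mouse cNCCs, were given 24 h to attach, were moved to DMEM containing 1% FBS, and were harvested for RNA at 48 h. The SHH-N group is 4 cultures that received the amino-terminal SHH peptide at 0.4 μg/mL, and the vehicle group is 4 cultures without it, each on its own Affymetrix Mouse Gene 2.0 ST array. All 8 cultures are of a single line grown apart from the ectoderm that overlies such cells in the embryo. The labels call the cultures biological replicates, but nothing further says how separate they were, so every p-value here measures the spread between these cultures.

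Id proteins carry a helix-loop-helix domain but lack the basic region that contacts DNA. They pair with E proteins, the broadly expressed basic helix-loop-helix (bHLH) factors, and keep them from binding DNA alone or with tissue-restricted bHLH partners. Id genes are known as direct targets of bone morphogenetic protein (BMP) signaling through SMAD1 and SMAD5, and as genes that favor proliferation over differentiation. In Xenopus, Id3 maintains neural crest progenitors, and in mouse, Id4 has been linked to osteoblast differentiation through Hes1, Hey2 and Runx2.

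The arrays showed the response to the ligand. *Ptch1*, the receptor of SHH, had a log2 signal of 12.85 ± 0.056 in SHH-N-treated cNCCs and 8.45 ± 0.077 in vehicle-treated cNCCs (SD, n = 4 each, difference 4.39, adjusted p = 1.61e-08 from limma). *Gli1* and *Hhip*, targets of the pathway, differed by 4.71 and 6.84 on the log2 scale, where the vehicle means of 5.33 and 5.76 lay below and at the array median, so that these are lower bounds if such a signal is background. *Gapdh*, a housekeeping gene, differed by -0.037 (adjusted p = 0.722 from limma). Array medians lay between 5.70 and 5.76 on the log2 scale, and this median is the only yardstick for a dim signal, since no background estimate came with the values used here. All 9 markers of neural crest mesenchyme had means above it in both treatments. Of these, 2 were called higher with SHH-N (*Pdgfra* and *Cd44*) and 4 lower, a share called of 66.7% against 9.98% of all genes. All genes include dim ones, so these shares are not matched for signal. Among the markers called lower were *Snai2* by -1.52 and *Prrx1* by -0.62 on the log2 scale. *Pdgfra* did not pass when any 1 culture was left out (adjusted p between 0.0136 and 0.0325 from limma). *Sox10*, which marks migratory neural crest, was at 5.89 ± 0.13 in SHH-N-treated and 5.76 ± 0.15 in vehicle-treated cNCCs (SD, n = 4 each), close to the median. Of the same list, *Foxd3* lay above the median, with means of 6.83 with SHH-N and 6.74 with vehicle. *Erbb3* was at 5.93 with SHH-N and 5.58 with vehicle, and none of the 3 genes passed the test. Of 5 epithelial markers 1 was called higher with SHH-N (*Cdh1*, E-cadherin, by 1.77), of 5 endothelial markers 1 (*Cdh5*, VE-cadherin, by 0.67) and of 5 leukocyte markers none. The summed linear signal of the epithelial markers, *Cdh1* included, was 447 to 503 in SHH-N-treated and 244 to 278 in vehicle-treated cultures. That of the endothelial markers was 205 to 233 in SHH-N-treated and 180 to 198 in vehicle-treated cultures. For the leukocyte markers it was 246 to 255 in SHH-N-treated and 239 to 262 in vehicle-treated cultures. *Epcam* and *Ptprc* lay below the array median in both treatments. Means above it in both treatments were found for 2 of 5 epithelial markers (*Cdh1* and *Krt8*), 1 of 5 endothelial markers (*Pecam1*) and 1 of 5 leukocyte markers (*Cd68*). The part of these markers in the results on Id genes was not tested. SHH-N replicate 3 stood apart on the second principal component, at 41.8 where the other 7 arrays lay between -17.4 and 10.9.

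*Id1*, *Id2* and *Id3* were lower in SHH-N-treated than in vehicle-treated cNCCs, and *Id4* was higher. The 4 SHH-N values of each gene lay wholly to one side of the 4 vehicle values, as they did in 25.1% of all genes. The family was selected on this contrast, so nothing is read from that separation. *Id2* had the largest difference of the family, a signal in SHH-N-treated cNCCs that was 0.318 of that in vehicle-treated cNCCs, and *Id1*, *Id3* and *Id4* each differed by close to 2-fold. All 8 values of every Id gene lay above the array median. The cultures were measured in bulk, so fewer cells with a transcript and less of it per cell cannot be told apart.

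*Id2*, whose protein can also bind the retinoblastoma protein, had log2 signals of 8.17, 8.24, 8.13 and 8.00 in SHH-N replicates 1 to 4, against 9.74, 9.78, 9.79 and 9.84 in vehicle replicates 1 to 4. The means were 8.13 ± 0.10 with SHH-N and 9.79 ± 0.04 with vehicle (SD, n = 4 each), a log2 difference of -1.65 (standard error, SE, 0.065). The gap of the highest SHH-N culture to the lowest vehicle culture was 1.497 on the log2 scale, the widest gap in the family. A larger absolute difference was found in 0.452% of all transcript clusters, a share that describes the value the family was selected on.

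*Id3* had log2 signals of 9.55, 9.42, 9.35 and 9.23 in the SHH-N cultures, against 10.38, 10.44, 10.48 and 10.56 in the vehicle cultures. The means were 9.39 ± 0.14 with SHH-N and 10.47 ± 0.077 with vehicle (SD, n = 4 each), a log2 difference of -1.08 (SE 0.081) and a gap of 0.83 between the groups. *Id1*, known for its response to BMP and serum, varied most between cultures of the 4, with a pooled SD of 0.194. Its log2 signals were 6.98, 7.29, 6.83 and 6.78 in the SHH-N cultures, against 7.87, 7.81, 8.15 and 8.04 in the vehicle cultures. The means were 6.97 ± 0.23 with SHH-N and 7.97 ± 0.15 with vehicle (SD, n = 4 each), a log2 difference of -0.997 (SE 0.13). SHH-N replicate 4 was the lowest SHH-N culture for *Id1*, *Id2* and *Id3* alike.

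*Id4*, the member that moved the other way, had log2 signals of 9.01, 9.03, 8.97 and 9.08 in the SHH-N cultures, against 7.98, 7.88, 8.10 and 7.78 in the vehicle cultures. The SHH-N cultures lay within 0.10 of each other, while the vehicle cultures spanned 0.32. The means were 9.03 ± 0.043 with SHH-N and 7.94 ± 0.14 with vehicle (SD, n = 4 each), a log2 difference of 1.09 (SE 0.076), or 2.13-fold on the linear scale. In size this is close to the differences of *Id1* and *Id3*, with the opposite sign.

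**Figure D1:**
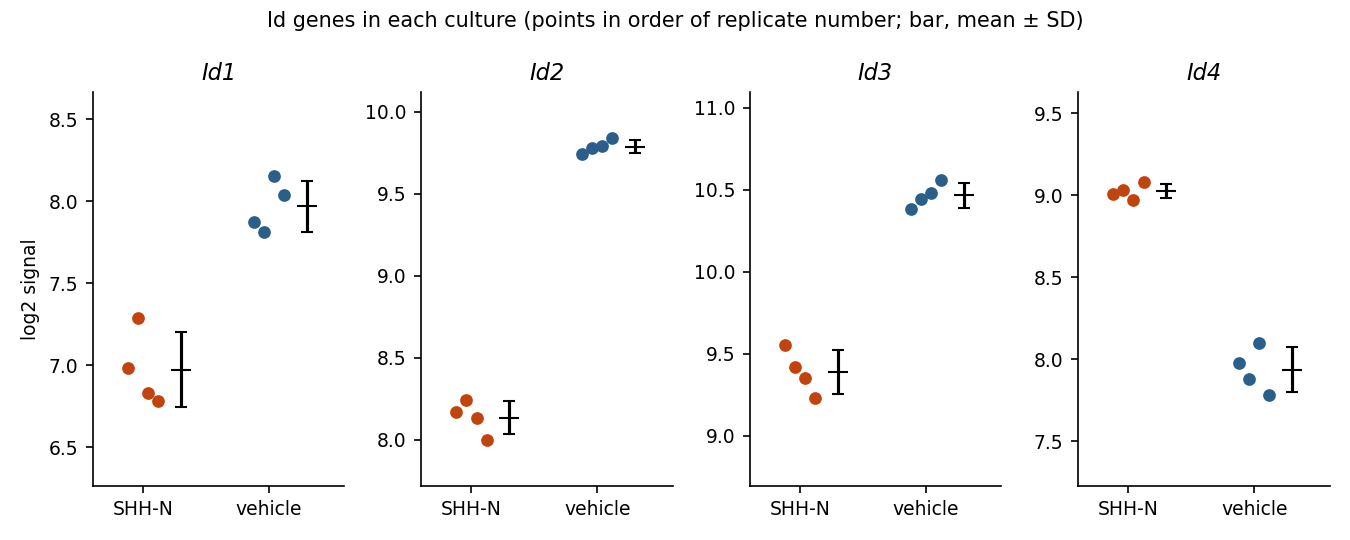
Log2 signal of *Id1*, *Id2*, *Id3* and *Id4* in each culture, with SHH-N on the left and vehicle on the right of each panel; points are cultures in the order of their replicate number, bars are the mean ± SD (n = 4), and every panel spans the same range of log2 units. The groups are separate in all 4 panels, with SHH-N below vehicle for *Id1*, *Id2* and *Id3* and above it for *Id4*.

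Against this family, 9.98% of all 22180 genes and 6.48% of all 41345 clusters passed a threshold of 0.01 on limma's p after Benjamini-Hochberg adjustment, the threshold of the methods. Of all genes 4.79% were called higher and 5.19% lower with SHH-N. Treatments did not overlap in 25.1% of genes, 12.6% with SHH-N above and 12.5% with SHH-N below vehicle. All 4 Id genes were past that threshold, 3 lower and 1 higher, but the family was chosen with this contrast in view and nothing is read from the count. With the replicate number as a block in the model, 3 of 4 were past it, all but *Id1*. The median difference over all genes was 0.008 on the log2 scale. Clusters with a larger absolute difference were 1.88% of the total for *Id1*, 1.52% for *Id3* and 1.49% for *Id4*. Such shares rank the values that the family was selected on, among clusters that include dim ones, and nothing is read from them. SHH-N replicate 3 did not carry the pattern. Without it the log2 differences were -0.95 for *Id1*, -1.65 for *Id2*, -1.06 for *Id3* and 1.10 for *Id4*.

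**Figure D2:**
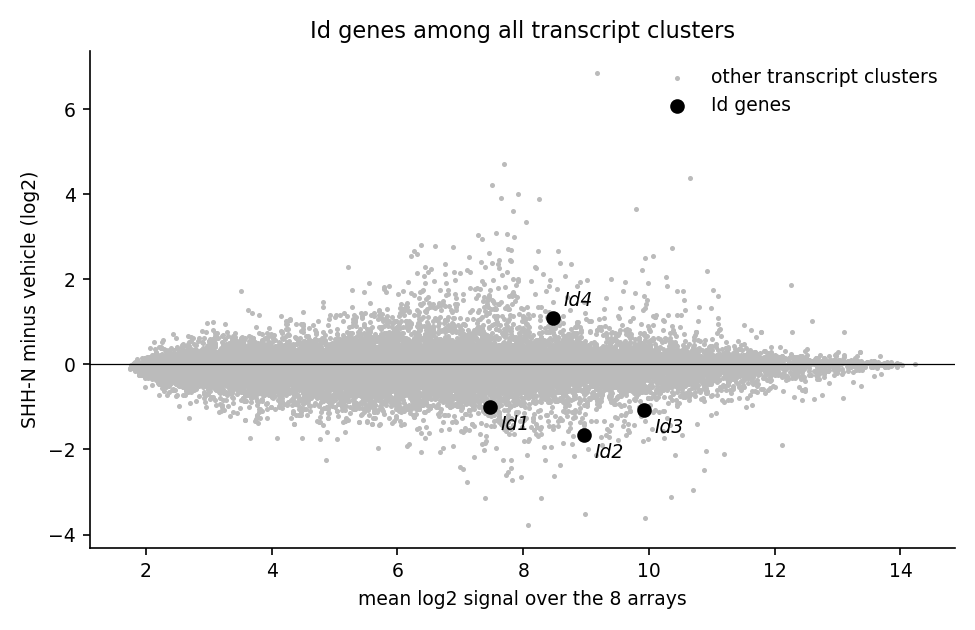
SHH-N minus vehicle difference (log2, vertical axis) against the mean log2 signal over the 8 arrays (horizontal axis) for all 41345 transcript clusters in grey and the 4 Id genes in black. *Id2* lies lowest of the Id genes at -1.65, *Id1* and *Id3* at -0.997 and -1.08, and *Id4* at 1.09.

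Within each array, the members changed by unequal amounts. The signal of *Id2* minus that of *Id4* was -0.89 ± 0.13 in SHH-N-treated and 1.85 ± 0.16 in vehicle-treated cNCCs (SD, n = 4 each), a shift of -2.74 on the log2 scale (SE 0.10). *Id2* minus *Id3* was -1.25 ± 0.088 in SHH-N-treated and -0.68 ± 0.037 in vehicle-treated cNCCs, a shift of -0.57 (SE 0.048), so *Id2* was reduced more than *Id3* in every SHH-N culture relative to every vehicle culture. *Id1* minus *Id3* did not separate the treatments, at -2.42 ± 0.20 in SHH-N-treated and -2.50 ± 0.12 in vehicle-treated cNCCs, with a shift of 0.081 (SE 0.12). These are descriptions of the same contrast. The sign of such a within-array difference does not order the transcripts by abundance, because each cluster has its own probes.

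The promoter windows of 3 of the 4 genes, *Id2*, *Id3* and *Id4*, could be matched by symbol in RefSeq (build GRCm38.p6), and they are shown because *Id2* and *Id3* fell in these cells where *Id4* rose. Each window runs from 250 bases before to 50 bases after the gene's start and is printed 5′ to 3′ on the gene's strand. Those of *Id2* (chr12:25096043-25096342, minus strand), *Id3* (chr4:136143572-136143871, plus strand) and *Id4* (chr13:48260866-48261165, plus strand) follow, with capitals for GGCGCC, the core of a GC-rich element bound by SMAD1 and SMAD5, and for the CCAAT box on either strand (ATTGG where it reads on the other strand).
Id2: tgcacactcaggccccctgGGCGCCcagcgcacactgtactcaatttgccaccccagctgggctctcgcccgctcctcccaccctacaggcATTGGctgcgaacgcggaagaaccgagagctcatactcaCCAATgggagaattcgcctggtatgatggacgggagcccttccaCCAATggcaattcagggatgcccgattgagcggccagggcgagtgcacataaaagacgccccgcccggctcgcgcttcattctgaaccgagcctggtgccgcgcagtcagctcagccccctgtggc
Id3: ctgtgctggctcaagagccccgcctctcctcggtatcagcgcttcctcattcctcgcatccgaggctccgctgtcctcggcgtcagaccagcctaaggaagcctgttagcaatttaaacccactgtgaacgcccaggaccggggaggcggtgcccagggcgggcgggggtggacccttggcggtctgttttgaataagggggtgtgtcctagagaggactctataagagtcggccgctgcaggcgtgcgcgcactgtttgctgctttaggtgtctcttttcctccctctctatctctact
Id4: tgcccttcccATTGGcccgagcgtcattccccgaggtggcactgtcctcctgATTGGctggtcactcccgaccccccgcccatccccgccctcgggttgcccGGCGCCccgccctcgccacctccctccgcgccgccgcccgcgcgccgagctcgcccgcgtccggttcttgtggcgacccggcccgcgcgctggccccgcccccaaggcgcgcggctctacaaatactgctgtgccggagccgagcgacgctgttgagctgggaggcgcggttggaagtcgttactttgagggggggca
Both motifs and 3 more were searched on both strands of these windows and of all 32851 RefSeq windows of the same length, and matches of GGCGCC and CCAAT did not overlap each other. GGCGCC occurred once in the *Id2* window, its first base at -231 from the gene's start, and once in the *Id4* window, at -148, but not in the *Id3* window, and 11.9% of all windows hold it. CCAAT occurred 3 times for *Id2*, 2 times for *Id4* and not for *Id3*, against 37.4% of all windows with at least 1. CAGAC, the core of the SMAD-binding element, occurred 2 times for *Id3* and not for *Id2* or *Id4* (49.6% of windows), and CANNTG, the E-box that bHLH dimers bind, occurred once for *Id2* and not for *Id3* or *Id4* (72.3%). GACCACCCA, the consensus of Gli factors, was in none of the 3 windows and in 0.253% of all. A lower and a higher member thus shared the GGCGCC and CCAAT letters. A match here is only a match of letters, and absence from the window says nothing about binding elsewhere.

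The E proteins, the direct partners of Id proteins, stayed short of the threshold. Of the 3 genes none passed the test at an adjusted p under 0.01. *Tcf4*, which encodes E2-2, had log2 signals of 10.63, 10.62, 10.68 and 10.62 in the SHH-N cultures, against 10.88, 10.83, 10.87 and 10.84 in the vehicle cultures, a difference of -0.22 (SE 0.049, adjusted p = 0.024 from limma) where the groups did not overlap. *Tcf12*, which encodes HEB, was at 9.63 ± 0.036 with SHH-N and 9.51 ± 0.028 with vehicle (SD, n = 4 each), a difference of 0.12 (adjusted p = 0.196 from limma). *Tcf3*, which encodes E12 and E47, was at 9.75 ± 0.075 with SHH-N and 9.68 ± 0.089 with vehicle (SD, n = 4 each), a difference of 0.071 (adjusted p = 0.601 from limma). *Tcf4* passed the threshold under some alternatives, with adjusted p values between 8.10e-04 and 0.00885.

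Tissue-restricted bHLH genes, whose products pair with E proteins, showed 1 change in each of 2 lists. Of 15 genes of mesenchyme and mesoderm, 1 was lower and 14 did not pass. It is *Scx*, scleraxis, a factor of tendon and ligament progenitors, with log2 signals of 9.32, 9.08, 8.97 and 9.12 in the SHH-N cultures, against 9.88, 9.80, 9.92 and 9.90 in the vehicle cultures (difference -0.75, SE 0.080, adjusted p = 4.06e-04 from limma). *Twist1*, which patterns the cranial mesenchyme, had a difference of -0.074 (adjusted p = 0.556 from limma). *Twist2* had one of 0.28 (adjusted p = 0.345 from limma), with overlapping groups. Of 21 neurogenic bHLH genes measured, only *Atoh8* passed, and none of 7 myogenic and blood genes did. The median differences of the 3 lists were -0.015, 0.064 and -0.005 on the log2 scale. The shares called were 6.67% of the first list and 4.76% of the second, against 9.98% of all genes, a difference that was not tested. Only 8 of the 15 genes of the first list and 7 of the 21 of the second had means above the array median in both treatments, so many members were dim.

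**Figure D3:**
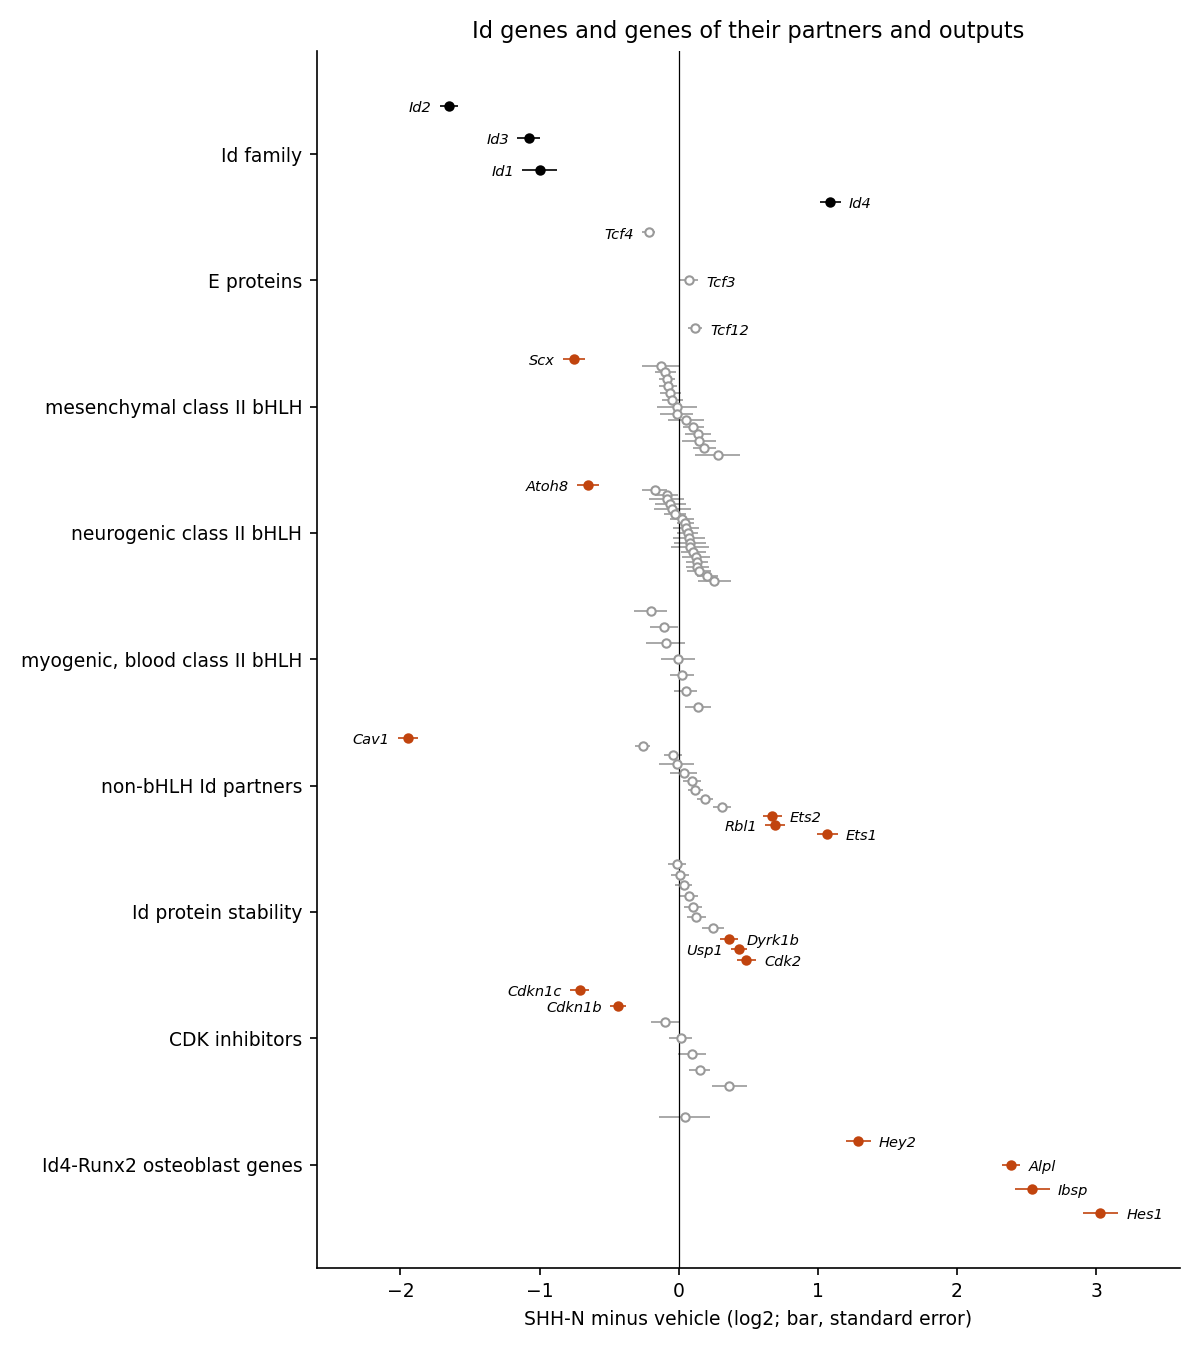
SHH-N minus vehicle difference (log2, horizontal axis; bars are the standard error (SE)) of the 4 Id genes in black and of genes in 8 lists, 1 list per row, with filled orange points for genes called at an adjusted p under 0.01 and open grey points for the rest. The E proteins lie between -0.22 and 0.12, while *Cav1* lies at -1.95 and *Hes1* at 3.03.

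Several genes whose products bind Id proteins outside the bHLH family changed. Of 12, 3 were higher, 1 was lower and 8 did not pass, a share called of 33.3% against 9.98% of all genes. *Cav1*, caveolin-1, which can bind Id1, had log2 signals of 7.41, 7.34, 7.25 and 7.44 in the SHH-N cultures, against 9.37, 9.15, 9.39 and 9.31 in the vehicle cultures (difference -1.95, SE 0.075, adjusted p = 1.63e-06 from limma). Some Ets factors are kept from DNA by Id proteins as well, and those listed did not change alike. *Elk1*, *Elk3* and *Elk4* did not pass, with differences of 0.19, -0.041 and 0.12 on the log2 scale. Their adjusted p values from limma were 0.073, 0.769 and 0.245. *Ets1* was at 8.30 ± 0.066 with SHH-N and 7.23 ± 0.12 with vehicle (SD, n = 4 each, difference 1.07, adjusted p = 3.66e-05 from limma), and *Ets2* differed by 0.67 (adjusted p = 2.57e-04 from limma). *Rbl1*, the retinoblastoma relative p107 and a binding partner of Id2, rose by 0.69 on the log2 scale (SE 0.071, adjusted p = 3.25e-04 from limma), while *Rb1* (0.31) and *Rbl2* (-0.26) did not pass, with adjusted p values from limma of 0.017 and 0.015.

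Genes grouped here for the stability, phosphorylation or binding of Id proteins rose slightly where they passed the test. Of 10, 3 rose, 0 fell and 7 did not pass, with a median difference of 0.11 on the log2 scale. The share called was 30.0%, against 9.98% of all genes called in either direction and 4.79% called higher. All 10 had means above the array median in both treatments, while all genes include dim ones. The 3 that rose all lost the call with the replicate number as a block in the model. *Usp1*, the deubiquitinase that protects Id proteins from the proteasome, had log2 signals of 8.77, 8.71, 8.81 and 8.73 in the SHH-N cultures, against 8.39, 8.36, 8.24 and 8.29 in the vehicle cultures (difference 0.44, SE 0.057, adjusted p = 0.00133 from limma). *Cdk2*, a kinase that phosphorylates Id2 and Id3, rose by 0.48 on the log2 scale (adjusted p = 0.00221 from limma), with an adjusted p of 0.0103 without vehicle replicate 2. *Dyrk1b*, a kinase that phosphorylates Id2, rose by 0.36 (adjusted p = 0.00824 from limma) and did not pass when any 1 culture was left out (adjusted p between 0.0133 and 0.0283). *Fzr1*, which directs Id proteins to the anaphase-promoting complex, had a difference of 0.24 (adjusted p = 0.098 from limma).

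Among genes known to be induced by BMP through SMADs, as *Id1*, *Id2* and *Id3* are, those called went both ways. Of 11 measured, 3 were lower, 3 were higher and 5 did not pass, a share called of 54.5% against 9.98% of all genes, with a median difference of -0.041 on the log2 scale. With the replicate number as a block in the model, the 3 lower genes lost the call, as did *Bambi* among the higher. *Atoh8*, a bHLH gene that is also counted among the neurogenic genes above, had log2 signals of 7.40, 7.49, 7.38 and 7.22 in the SHH-N cultures, against 7.90, 8.02, 8.06 and 8.12 in the vehicle cultures (difference -0.65, SE 0.078, adjusted p = 8.14e-04 from limma). *Smad6*, an inhibitory SMAD that dampens BMP receptors, had signals of 8.02, 8.01, 7.95 and 8.34 in the SHH-N cultures, against 8.61, 8.77, 8.75 and 8.71 in the vehicle cultures (difference -0.63, SE 0.094, adjusted p = 0.00285 from limma). *Smad7*, the inhibitory SMAD of both BMP and TGF-beta pathways, had a difference of -0.36 (SE 0.060, adjusted p = 0.00477 from limma). The calls of both depend on the arrays used. *Smad6* did not pass without SHH-N replicate 1 or 2 or vehicle replicate 2, 3 or 4 (adjusted p between 0.0113 and 0.0124). *Smad7* passed in only 1 of 8 such fits, without SHH-N replicate 4, and had an adjusted p between 0.0148 and 0.0183 in the others.

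The members of this list that rose include *Hey1*, which is also a Notch target, at 9.92 ± 0.41 with SHH-N and 5.91 ± 0.23 with vehicle (SD, n = 4 each, difference 4.01, adjusted p = 6.78e-06 from limma). *Unc5b*, a netrin receptor, rose by 0.98 on the log2 scale (adjusted p = 1.03e-04 from limma). *Bambi*, a decoy receptor that blocks BMP and TGF-beta signaling, rose by 0.47 (adjusted p = 0.00662 from limma) and did not pass when any 1 culture was left out (adjusted p between 0.0114 and 0.0246). *Msx2*, a homeobox gene of the facial mesenchyme, had a difference of -0.29 (adjusted p = 0.128 from limma), and *Smad9* one of -0.18 (adjusted p = 0.14 from limma).

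Among the BMP ligands, receptors and SMADs themselves, 2 of 14 were lower, 2 were higher and 10 did not pass, a share called of 28.6% against 9.98% of all genes. *Bmp4*, a ligand of the facial mesenchyme, had log2 signals of 8.07, 7.94, 7.82 and 8.19 in the SHH-N cultures, against 9.55, 9.48, 9.50 and 9.46 in the vehicle cultures (difference -1.50, SE 0.084, adjusted p = 1.08e-05 from limma). *Gdf5*, a ligand of developing joints, had a difference of -1.59 (adjusted p = 1.50e-05 from limma), and a dimmer cluster of the gene one of -0.24 (adjusted p = 0.215 from limma). *Bmp2* was at 6.39 ± 0.18 with SHH-N and 5.54 ± 0.13 with vehicle (SD, n = 4 each, difference 0.85, adjusted p = 9.19e-04 from limma), and *Bmpr1b*, a type I BMP receptor, at 6.96 ± 0.10 with SHH-N and 5.23 ± 0.27 with vehicle (difference 1.73, adjusted p = 5.79e-05 from limma). The vehicle means of *Bmp2* and *Bmpr1b* lie below the array median, and where such a signal is background their rises are lower bounds. *Smad1*, *Smad5* and *Smad4*, the transducers between BMP receptors and Id promoters, did not pass, with differences of 0.15, 0.16 and -0.098 on the log2 scale and adjusted p values from limma of 0.227, 0.131 and 0.306.

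**Figure D4:**
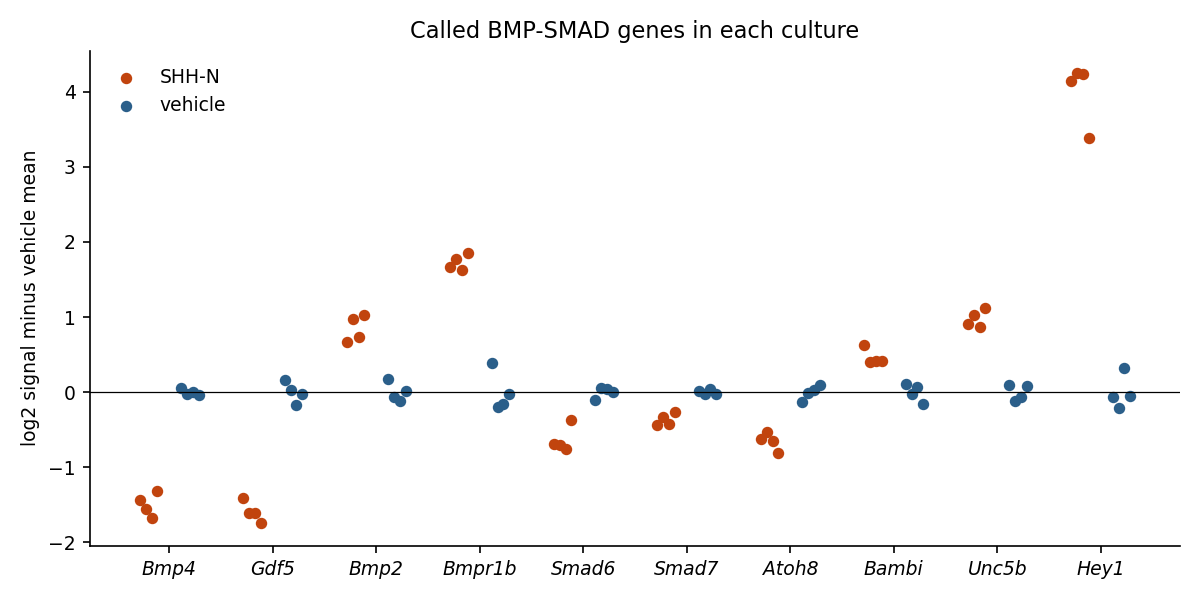
Log2 signal of each culture minus the vehicle mean of its gene (vertical axis) for the 10 called genes of the BMP-SMAD lists, with SHH-N cultures in orange to the left of vehicle cultures in blue. *Bmp4*, *Gdf5*, *Smad6*, *Smad7* and *Atoh8* lie below the vehicle cultures, and *Bmp2*, *Bmpr1b*, *Bambi*, *Unc5b* and *Hey1* above them.

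Cell cycle inhibitor genes that E proteins or Ets factors can activate, and that Id proteins can thereby restrain, fell or did not pass the test. Of 7, 2 were lower, none was higher and 5 did not pass. The share called was 28.6%, against 9.98% of all genes called in either direction and 5.19% called lower. All 7 had means above the array median in both treatments, while all genes include dim ones. *Cdkn1c*, which encodes p57, was at 7.92 ± 0.11 with SHH-N and 8.63 ± 0.051 with vehicle (SD, n = 4 each, difference -0.71, adjusted p = 2.22e-04 from limma), and *Cdkn1b*, which encodes p27, had a difference of -0.44 (adjusted p = 0.00135 from limma). *Cdkn1a*, which encodes p21, had one of 0.36 (adjusted p = 0.115 from limma), and *Cdkn2a*, the p16 locus, one of 0.096 (adjusted p = 0.626 from limma).

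Genes that have been linked to Id4 in mouse osteoblast differentiation rose in 4 of 5 measured. The share called was 80.0%, against 9.98% of all genes called in either direction and 4.79% called higher. The 4 are *Hes1* and *Hey2*, which are regulators and not bone genes, and the bone genes *Alpl* and *Ibsp*. *Runx2* and *Spp1* of the same list were not analysed here. *Hes1*, a repressor that Id proteins can bind, had log2 signals of 8.92, 8.86, 8.65 and 8.76 in the SHH-N cultures, against 5.84, 5.83, 5.99 and 5.41 in the vehicle cultures (difference 3.03, SE 0.13, adjusted p = 2.38e-06 from limma). Its partner *Hey2* rose by 1.29 on the log2 scale (adjusted p = 3.43e-05 from limma). *Alpl*, alkaline phosphatase of mineralizing cells, was at 8.70 ± 0.081 with SHH-N and 6.31 ± 0.063 with vehicle (SD, n = 4 each, difference 2.39, adjusted p = 3.47e-07 from limma). *Ibsp*, bone sialoprotein, rose by 2.54 (adjusted p = 5.04e-06 from limma), and *Bglap*, osteocalcin, had a difference of 0.042 (adjusted p = 0.927 from limma). The vehicle means of *Hey2* and *Ibsp* lie below the array median and that of *Hes1*, at 5.77, close to it, and where such a signal is background their rises are lower bounds.

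The genes whose 8 values ran most like those of each Id gene were found by the root mean square distance between profiles, each profile being the 8 log2 signals minus their mean, among 13245 clusters with 1 symbol and a mean above the array medians. The measure takes in the treatment difference and so gathers genes with a shift of the same size. The closest match was that of *Id2* with *Prokr1*, a prokineticin receptor, at a distance of 0.029 on the log2 scale, with a difference of -1.63. *Htra1*, a secreted serine protease, *Slc24a3*, a cation exchanger, *Pdk4*, a kinase that inhibits pyruvate dehydrogenase, and *Cited2*, a transcriptional coregulator, followed at 0.050 to 0.063. Next to *Id3* were *Irf7*, *Cthrc1*, *Myl9*, *Hacd1* and *Nfatc1* at 0.058 to 0.078, and next to *Id4* were *Cdca5*, a cohesion factor of dividing cells, *Efnb2*, an ephrin, *Tfrc*, the transferrin receptor, *Pkdcc* and *Tpst1* at 0.057 to 0.075. *Id1* had no match as close, and *H2-T24*, *Dhrs3*, *Cryab*, *Fam114a1* and *Sft2d2* lay at 0.117 to 0.126. No Id gene was among the 5 nearest genes of another. Because the distance takes in the treatment difference, this was largely set by the unlike differences of *Id2* and *Id4* for pairs with either of them. *Id1* and *Id3* had like differences, at -0.997 and -1.08. What kept these 2 genes apart was not tested, and nothing is read from the absence.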

How the data were processed

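RNA of 4 SHH-N and 4 vehicle cultures was measured on 8 arrays. The authors scanned the arrays, read intensities with Affymetrix GCOS software, converted them to signals with Expression Console and tested them in Transcriptome Analysis Console 2.0. Each transcript cluster has a log2 signal, which was used as deposited. The authors had put the arrays on a common scale by an algorithm, and on a genome build, not given in the sources used here. Groups came from the labels.

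All 41345 clusters were fitted with limma 3.58.1 in R 4.3.3 (lmFit and eBayes with default settings, two-sided, SHH-N minus vehicle), with Benjamini-Hochberg adjustment over all clusters. The fit was tested on simulated data. Where a gene had several clusters, the one with the highest mean was used. Symbols came from the array annotation. 23521 clusters have 1 symbol. Motifs and figures used Python 3.11.15 and matplotlib 3.10.9.

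The members and gene lists were chosen with earlier results of these data known. Named genes are the Id genes, the E proteins, *Gli1*, *Ptch1*, *Hhip*, *Gapdh*, called members of each list up to the 4 with the largest difference, members needed to account for a list, and the 5 nearest profiles of each Id gene. Same-numbered cultures did not deviate together (correlations of -0.022 to 0.019), so the numbers were not taken as pairs. Alternatives were a one-way analysis of variance, other limma settings, normalizations, filters, thresholds, clusters, a replicate block and leaving out each array. Listed genes with no cluster of a single symbol were not analysed here.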

Additional observations from a re-analysis of the deposited data

Results flagged for a closer look

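In 134 groups of 4 cultures, the SHH-N and the vehicle cultures of each of 67 named genes, 1 culture lay apart from the other 3 in 6 cases, and chance alone gives about 1 in 20 such groups. None of the 6 is in an Id gene, and all are SHH-N cultures. *Hey1* was at 9.30 in SHH-N replicate 4, below the 10.06 to 10.16 of the other SHH-N cultures, and *Ibsp* was at 7.26 in the same culture, below 7.55 to 7.58. *Bambi* was at 8.14 in SHH-N replicate 1, above 7.92 to 7.93, and *Cdkn1b* at 9.09 in that culture, above 8.99 to 9.00. *Tcf4* was at 10.68 in SHH-N replicate 3, above 10.62 to 10.63, and *Pkdcc* at 8.63 in that culture, below 8.87 to 8.91.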

How the results depend on the processing

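The differences of the Id genes kept their sign and moved by less than 1 SD under all 17 alternatives that gave a value, from -1.10 to -0.94 for *Id1*, -1.69 to -1.61 for *Id2*, -1.13 to -1.02 for *Id3* and 1.04 to 1.14 for *Id4*. These extremes are also the range when each array was left out in turn. Blocking on replicate number left 1240 called clusters (624 higher and 616 lower) against 2679 (1226 higher and 1453 lower) without it, 1 of 46 E protein and other bHLH genes was called against 2, and 5 of 25 BMP-SMAD genes against 10, and 3 of 4 Id genes against 4 (*Id1* dropped out). Single genes that lost the call with the block number 12. They are *Usp1*, *Cdk2*, *Dyrk1b*, *Atoh8*, *Smad6*, *Smad7*, *Bambi*, *Bmp2*, *Cdkn1b*, *Pdgfra*, *Cd44* and *Cdh5*. With the block, adjusted p from limma was 0.0237 for *Usp1*, 0.0159 for *Atoh8*, 0.0124 for *Bmp2* and 0.0239 for *Cdkn1b*. At an adjusted p under 0.05 there were 4694 called clusters (2073 higher and 2621 lower), and 1574 (765 higher and 809 lower) at 0.01 with a fold change of at least 1.5. Leaving out each array gave 1952 to 2346 called clusters (934 to 1070 higher and 1018 to 1322 lower), 7 to 9 BMP-SMAD genes, 2 bHLH genes in every fit and 11 to 12 of 34 genes of other partners, stability and outputs, against 13. The cause of these shifts was not tested. A dimmer cluster of *Cdh1* had a difference of 0.19 (adjusted p = 0.268 from limma). The number of arrays limits the precision.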
